A study of Aedes aegypti with 5 samples.

Results

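The oligonucleotide array carried 433 gene probes of the *Aedes aegypti* salivary gland, and 55 of them made up the genes of translation, protein folding and the secretory route. They were chosen by words in the description of each probe and not by any measured value, though with earlier results of these data known. Of the 55 members, 17 were translation factors, 16 were named for folding, 9 for entry into the endoplasmic reticulum (ER) and 13 for vesicle traffic. The full descriptions of 4 members went against the step they were matched to. These were transcription initiation factor IIF large subunit (AET-5310), which serves transcription, a histone chaperone (AET-4896), the copper chaperone COX17 (AET-7047) and a hypothetical dipteran protein (AE-18225) that itself has a signal peptide.

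RNA came from dissected salivary glands of female mosquitoes of the Higgs white eye strain, in 5 groups. These were unfed (naïve) females and fed females, taken 1, 3, 24 or 48 hours after a full meal on a BALB/c mouse (hours post feeding, hpf). All groups were of the same age, had taken no earlier blood meal and were starved before the feeding. Each group was 1 RNA pool hybridized to 3 nylon arrays, so the 15 arrays give 3 technical replicates per group, and p-values measure the spread between arrays and not between mosquitoes. Fewer cells of a type and less RNA per cell cannot be told apart in such pooled glands.

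A salivary gland cell makes saliva proteins in large amounts and stores them for the next bite. Initiation factors load the ribosome on the mRNA and elongation factors bring in each amino acid and move the ribosome along. A growing secreted chain passes through the Sec61 channel into the ER, signal peptidase cuts off its leader, and chaperones such as calreticulin and isomerases such as protein disulfide isomerase fold it. Small GTPases of the Rab and ARF families, coat proteins and p24 cargo receptors then carry it in vesicles through the Golgi to the cell surface.

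Values are normalized intensities. The mean of 22 empty spots was subtracted from each spot and the result was scaled to the average of the actin and ribosomal protein S5 spots, treated likewise. An array counted a probe as above the empty spots when its value passed their mean plus 2 SD. On 1 array 121 to 162 probes passed that limit, of which 9 to 14 were members. Of 15 probes for salivary proteins such as D7, apyrase and amylase, 14 were detected in every comparison with unfed, that is above the empty spots on 2 or 3 arrays of either group, and the probe for myosin light chain of muscle was above them on 0 arrays. No probe matched the fat body words. Of the midgut words, 4 probes were above the empty spots on 2 or 3 arrays of every group. They were a salivary chymotrypsin-like enzyme, a trypsin-like salivary secreted protein, large trypsin (AEA-876) and mucin-like peritrophin (AE-466). Of the haemocyte words, 0 of 2 probes in unfed glands and 1 of 2 in glands of each fed time were above them on 2 or 3 arrays, and the part of such cells in the results was not tested.

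In at least 1 group 12 of the 55 members were above the empty spots on 2 or 3 of the 3 arrays, which is 21.8%. Among the 378 gene probes outside the rule it was 157, or 41.5%. The steps differed in this count, with 4 of 17 for translation, 5 of 16 for folding, 3 of 9 for entry into the ER and 0 of 13 for vesicle traffic. A further 5 members passed the limit only on single arrays and 38 on none. Binding differs between probes, so a probe at the level of the empty spots does not show that the transcript was lacking.

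**Figure D1:**
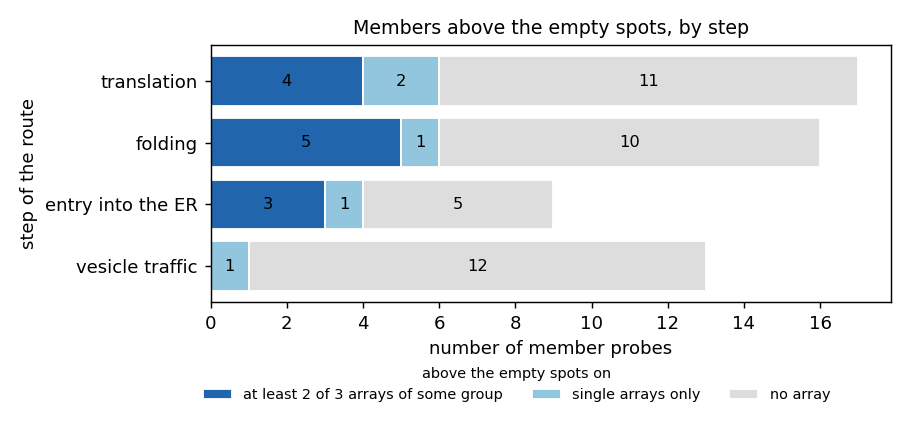
Number of member probes (x axis) at each step of the route (y axis), split by whether the probe passed the empty spots on 2 or 3 arrays of some group, on single arrays only, or on no array. The counts of the first kind are 4 for translation, 5 for folding and 3 for entry into the ER, and the bar for vesicle traffic has none.

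The count varied by 1 over the groups. In unfed glands and at 1, 3, 24 and 48 hpf the members above the empty spots numbered 12, 11, 12, 11 and 12. The single loss at 1 hpf was a cyclophilin isoform (AE-296), on 0 of 3 arrays, and the single loss at 24 hpf was a heat shock cognate (Hsc70, AET-2544), on 1 of 3 arrays. On all 15 arrays 6 members were above the empty spots. These were elongation factor 1-gamma, elongation factor 2, calreticulin, the 14-3-3 family chaperone, the heat shock cognate probed by AET-381 and SPC25 of the signal peptidase complex.

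Arrays of the same number deviated together in all groups. In 59 of the 60 sets of 3 arrays (12 members in 5 groups) the array numbered 3 was above the array numbered 1. The limit of the empty spots was also higher on array 3 than on array 1 of the same group, at 0.140 to 0.242 on the arrays numbered 3, 0.0731 to 0.141 on those numbered 1 and 0.0423 to 0.102 on those numbered 2. Each difference was therefore fitted with limma without and with the array number as a block, on log2 values raised to a common floor of 0.108, and p-values were adjusted by Benjamini-Hochberg over 432 probes per comparison. Log2 ratios below are on that floored scale and their errors are standard errors of the fit with the block. Folds are ratios of group means of the normalized intensities without the floor.

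**Figure D2:**
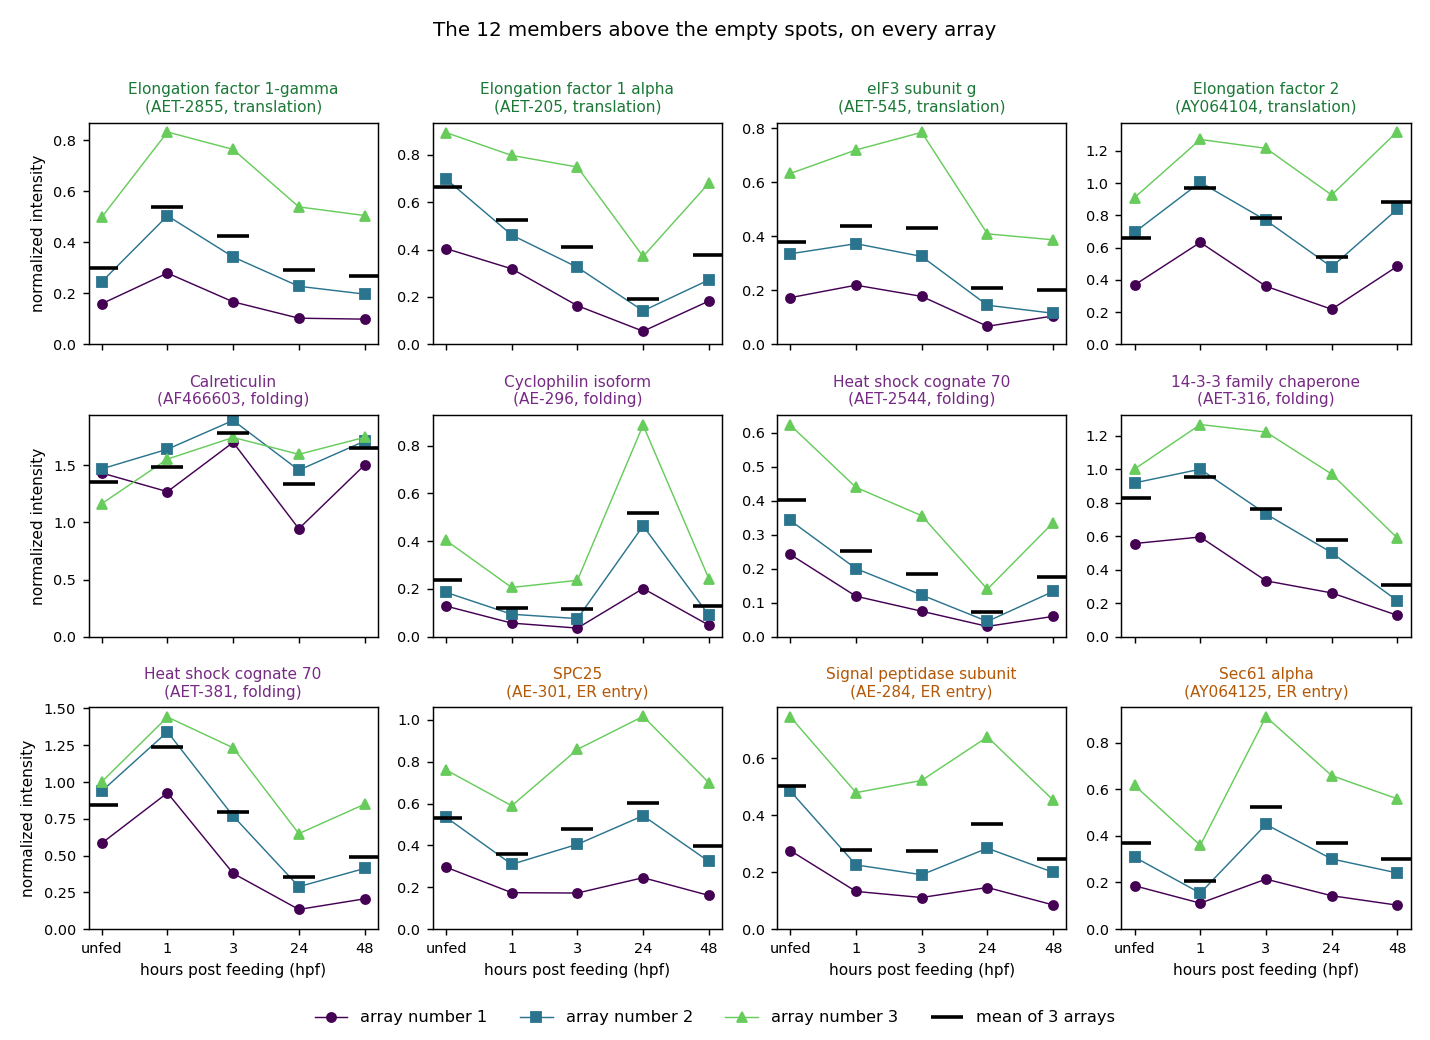
Normalized intensity (y axis) of the 12 members above the empty spots, on each array of the unfed, 1, 3, 24 and 48 hpf groups (x axis, not to scale in time). Symbols mark the array number, lines join arrays of the same number and black bars are means of 3 arrays. The cyclophilin isoform stands highest at 24 hpf on all 3 array numbers, at 0.202, 0.464 and 0.886.

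Among the translation factors, elongation factor 1 alpha (AET-205), which brings the charged tRNA to the ribosome, gave 0.404, 0.698 and 0.893 on the unfed arrays, 0.319, 0.461 and 0.797 at 1 hpf, 0.163, 0.325 and 0.748 at 3 hpf, 0.0556, 0.142 and 0.371 at 24 hpf and 0.183, 0.272 and 0.680 at 48 hpf. Its 3 arrays at 24 hpf all lay below the 3 unfed arrays, and at the other times the groups overlapped. The mean at 24 hpf was 0.189 ± 0.163 against 0.665 ± 0.246 in unfed glands (SD, n = 3 arrays each), 0.285 of unfed, with array 1 of 24 hpf not above the empty spots. The log2 ratio was -1.83 ± 0.20, with a limma adjusted p of 0.401 without the block and 0.000289 with it. With the block it was also lower at 3 hpf (log2 ratio -0.89 ± 0.20, limma adjusted p 0.0187) and at 48 hpf (-0.97 ± 0.20, 0.00537), but leaving out unfed array 1, unfed array 2 or the 3 hpf array 2 ended the call at 3 hpf (adjusted p up to 0.0836). Under local background the calls at 3 and 48 hpf were lost as well (adjusted p 0.591 and 0.122).

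Elongation factor 1-gamma (AET-2855), a subunit of the complex that recharges elongation factor 1 alpha with GTP, had 0.159, 0.245 and 0.499 on the unfed arrays, 0.279, 0.504 and 0.832 at 1 hpf, 0.167, 0.342 and 0.764 at 3 hpf, 0.103, 0.228 and 0.539 at 24 hpf and 0.0989, 0.197 and 0.505 at 48 hpf. All 3 arrays at 1 hpf exceeded the unfed array of the same number, but the ranges of the groups overlapped. At 1 hpf it was 1.79-fold of unfed, with a log2 ratio of 0.86 ± 0.15 and a limma adjusted p of 1 without and 0.00160 with the block. The direction at 1 hpf was the same under all 5 other ways of scaling or background correction, but with the block it passed under S5 alone only (log2 ratio 0.59, adjusted p 0.0112). The other exchange subunits of the array, elongation factor 1 beta (AY552052) and 1 delta (AET-374), were above the empty spots on no array, with highest values of 0.0278 and 0.185.

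For elongation factor 2 (AY064104), which moves the ribosome on by a codon, the unfed arrays read 0.368, 0.695 and 0.910, those of 1 hpf 0.632, 1.00 and 1.27, of 3 hpf 0.360, 0.768 and 1.22, of 24 hpf 0.218, 0.480 and 0.926 and of 48 hpf 0.484, 0.838 and 1.32. The groups overlapped at all times, and values at 1 and 48 hpf were above the unfed array of the same number on 3 of 3 arrays. The mean at 1 hpf was 1.47-fold of unfed (log2 ratio 0.60 ± 0.17, limma adjusted p 1 without and 0.0268 with the block). That call was lost under each of the 5 other settings, the log2 ratio was -0.05 without a reference, and the adjusted p reached 0.144 when any 1 of the 3 unfed arrays or arrays 1 or 2 of 1 hpf was left out.

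Subunit g of initiation factor 3 (AET-545), part of the complex that holds the small ribosomal subunit ready for mRNA, had 0.173, 0.335 and 0.633 in unfed glands, 0.219, 0.373 and 0.720 at 1 hpf, 0.178, 0.326 and 0.785 at 3 hpf, 0.0670, 0.145 and 0.409 at 24 hpf and 0.105, 0.115 and 0.387 at 48 hpf. Every array of 24 and 48 hpf was below the unfed array of its number, with overlapping ranges. The mean stood at 0.544 of unfed at 24 hpf, where array 1 was not above the empty spots, and 0.532 at 48 hpf. The log2 ratios were -0.84 ± 0.17 and -0.98 ± 0.17, and limma gave adjusted p = 0.00373 and 0.00157 with the block but 1 and 0.923 without it. Under quantile normalization these p-values with the block were 0.151 and 0.0555, and under local background 0.201 and 0.0970. The array median ended the call at 24 hpf as well (adjusted p 0.0786). At 1 and 3 hpf the log2 ratio was 0.23 and 0.10, and its sign turned under all 5 other settings at 1 hpf and under 4 of 5 at 3 hpf, local background being the exception.

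The other translation members were dim. Initiation factor 3 subunits e (AET-3898), f (AET-2983), h (AET-299) and subunit 2 (AY745983), the alpha (AET-4681) and beta (AET-7776) subunits of the exchange factor eIF-2B, eIF-5A (AE-313) and eIF-1A (AET-5358) were above the empty spots on no array. Initiation factor 4F (AET-2104), of the complex that binds the mRNA cap, passed on 48 hpf array 1 alone, with 0.200 there against -0.00393 and 0.0312 on the other arrays of that group. Elongation initiation factor 5C (AET-2920) passed on 1 array of 1 hpf. No fold is given for these members.

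In the folding group, calreticulin (AF466603), a calcium-binding chaperone of the ER, was above the empty spots on every array. It gave 1.43, 1.47 and 1.16 on the unfed arrays, 1.27, 1.64 and 1.55 at 1 hpf, 1.70, 1.89 and 1.74 at 3 hpf, 0.945, 1.46 and 1.60 at 24 hpf and 1.501, 1.71 and 1.74 at 48 hpf. The spot was saturated on 2 unfed arrays and 2 arrays of 3 hpf, and all arrays of 3 and 48 hpf lay above the 3 unfed arrays. With the deposited reference no comparison with unfed passed limma in either fit, with log2 ratios of 0.13, 0.40, -0.05 and 0.29 at 1, 3, 24 and 48 hpf. A saturated spot holds only a lower limit of its level, so these ratios are differences of the recorded values and not measured folds. The blocked fit gave adjusted p = 0.122 at 3 hpf and 0.345 at 48 hpf. The sign at 1 and 48 hpf turned under other scalings (with S5 alone -0.14 and -0.10).

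A cyclophilin isoform (AE-296), a prolyl isomerase, had its highest values at 24 hpf. It gave 0.128, 0.186 and 0.403 on the unfed arrays, 0.0572, 0.0943 and 0.206 at 1 hpf, 0.0362, 0.0759 and 0.236 at 3 hpf, 0.202, 0.464 and 0.886 at 24 hpf and 0.0484, 0.0904 and 0.244 at 48 hpf. The arrays of 24 hpf were the highest of their number and those of 1, 3 and 48 hpf lay below the unfed arrays, with overlap between array numbers. At 24 hpf it was 2.16-fold of unfed (log2 ratio 1.04 ± 0.22), with a limma adjusted p of 0.619 without and 0.00638 with the block. The direction was the same under all 5 other settings (log2 ratio 0.49 to 0.88), but none of them passed with the block, and without the arrays numbered 3 the adjusted p was 0.0572. At 1 hpf it was above the empty spots on 0 arrays, and glands of 1 hpf were at least 1.39-fold lower than unfed glands, a bound set by the dimmest probe above the empty spots on each array (limma adjusted p 0.0684 with the block). The second cyclophilin probe (AET-5893) passed on no array.

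The constitutive heat shock proteins of the Hsc70 family bind unfolded chains in the cytosol and the ER, and 2 probes carried that description. AET-2544 gave 0.242, 0.342 and 0.623 in unfed glands, 0.119, 0.201 and 0.440 at 1 hpf, 0.0751, 0.123 and 0.356 at 3 hpf, 0.0305, 0.0452 and 0.140 at 24 hpf and 0.0599, 0.133 and 0.336 at 48 hpf. Array 1 of 1, 3 and 48 hpf was not above the empty spots. Each fed array was below the unfed array of its number, and at 24 hpf all arrays lay below all unfed arrays. The mean at 24 hpf was 0.179 of unfed, although only 1 of those arrays was above the empty spots. The log2 ratio was -1.66 ± 0.25 (limma adjusted p 0.401 without and 0.00153 with the block). The array above the empty spots was array 2, at 0.0452 against a limit of 0.0423. The common floor replaced this value and that of array 1. Array 3 entered as recorded, at 0.140, below its own limit of 0.144. The ratio and call at 24 hpf therefore rested on the floor and on no detected value of that time. With the block the probe was also lower at 3 hpf (-1.15 ± 0.25, adjusted p 0.0148) and 48 hpf (-1.14 ± 0.25, adjusted p 0.00615). The call at 3 hpf ended with unfed array 2 or 3 hpf array 2 left out (adjusted p up to 0.0766), under quantile normalization (adjusted p 0.0699) and under local background (adjusted p 0.468), and the last 2 settings ended that at 48 hpf too (0.0545 and 0.0727).

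AET-381 had 0.584, 0.938 and 1.00 on the unfed arrays, 0.926, 1.34 and 1.44 at 1 hpf, 0.379, 0.769 and 1.23 at 3 hpf, 0.134, 0.289 and 0.649 at 24 hpf and 0.206, 0.412 and 0.849 at 48 hpf. Its arrays of 1 hpf were above, and those of 24 and 48 hpf below, the unfed arrays of the same number. At 24 hpf the mean was 0.425 of unfed, with a log2 ratio of -1.48 ± 0.28 and a limma adjusted p of 0.401 without and 0.00364 with the block. At 48 hpf the log2 ratio was -0.98 ± 0.28 (limma adjusted p 0.0339 with the block), a call that was lost without unfed array 1 or 2, 1 hpf array 2, any array of 3 hpf or 48 hpf array 1 or 2 (adjusted p up to 0.161), with the array median (adjusted p 0.0617) and under local background (adjusted p 0.105). At 1 hpf the log2 ratio of AET-381 was 0.57 ± 0.28, against -0.77 ± 0.25 for AET-2544, and neither passed with the block (limma adjusted p 0.279 and 0.0589). The difference between these probes was not tested.

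The 14-3-3 family protein (AET-316), an adaptor that binds phosphorylated proteins and is described on the array as a multifunctional chaperone, read 0.557, 0.919 and 1.00 in unfed glands, 0.596, 1.00 and 1.27 at 1 hpf, 0.334, 0.734 and 1.22 at 3 hpf, 0.262, 0.502 and 0.972 at 24 hpf and 0.128, 0.215 and 0.590 at 48 hpf. The lowest arrays of each number were those of 48 hpf, with overlap between groups. The mean at 48 hpf was 0.311 ± 0.245 against 0.826 ± 0.237 in unfed glands (SD, n = 3 arrays each), 0.376 of unfed. The log2 ratio of -1.66 ± 0.25 was the largest of the 12 members at that time by size, with a limma adjusted p of 0.286 without and 0.00148 with the block, and with the block it passed under all 5 other settings.

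The remaining folding members passed the empty spots on at most 1 array of any group. The co-chaperones of the DnaJ superfamily (AET-365 and AET-2950), which hand substrates to Hsp70 proteins, the co-chaperone STI1 (AET-4053), the FKBP prolyl isomerases (AET-2089 and AET-1660), a thioredoxin/protein disulfide isomerase (AET-4435) and a thiol-disulfide isomerase (AET-2063) passed on no array, nor did the histone chaperone and COX17. The highest normalized values of the DnaJ probes were 0.195 and 0.0581. The thioredoxin/protein disulfide isomerase AET-192 passed on 1 array of 24 hpf.

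At the entry into the ER, the detected members were subunits of the channel and of the peptidase behind it. SPC25 of the signal peptidase complex (AE-301) had 0.296, 0.535 and 0.761 on the unfed arrays, 0.174, 0.310 and 0.590 at 1 hpf, 0.173, 0.405 and 0.859 at 3 hpf, 0.246, 0.542 and 1.02 at 24 hpf and 0.161, 0.324 and 0.700 at 48 hpf. Arrays of 1 and 48 hpf were below the unfed array of the same number on 3 of 3, and the ranges overlapped. The mean was 0.675 of unfed at 1 hpf (log2 ratio -0.64 ± 0.15, limma adjusted p 1 without and 0.0123 with the block) and 0.744 at 48 hpf (log2 ratio -0.57 ± 0.15, limma adjusted p 0.0205 with the block). Leaving out unfed array 1, unfed array 2 or 1 hpf array 2 ended the call at 1 hpf (adjusted p up to 0.0625), and leaving out array 1 or 2 of either group ended that at 48 hpf (up to 0.111). Both calls were also lost under local background (adjusted p 0.220 and 0.262), and the one at 48 hpf under quantile normalization (0.0520). At 24 hpf the log2 ratio was 0.06, with the opposite sign under all 5 other settings.

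A second signal peptidase complex subunit (AE-284) gave 0.276, 0.485 and 0.746 in unfed glands, 0.133, 0.226 and 0.480 at 1 hpf, 0.111, 0.191 and 0.522 at 3 hpf, 0.146, 0.284 and 0.675 at 24 hpf and 0.0851, 0.200 and 0.454 at 48 hpf. On all 3 array numbers every fed value was below the unfed value. Array 1 of 1, 3 and 48 hpf was not above the empty spots. The mean was 0.556, 0.547, 0.734 and 0.490 of unfed at 1, 3, 24 and 48 hpf, and the log2 ratios were -0.93 ± 0.15, -1.06 ± 0.15, -0.61 ± 0.15 and -1.12 ± 0.15. It was the only member that passed limma with the block at all 4 times, with adjusted p-values of 0.00147, 0.00149, 0.0125 and 0.00103, against 0.855 or 0.777 at 3 and 48 hpf and 1 at the others without it. Leaving out array 1 or 2 of either group ended the call at 24 hpf (adjusted p up to 0.0755), as did quantile normalization (adjusted p 0.0884) and local background (adjusted p 0.118), and local background ended that at 3 hpf (adjusted p 0.265).

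Sec61 alpha (AY064125), which forms the channel itself, had 0.186, 0.309 and 0.616 on the unfed arrays, 0.111, 0.154 and 0.360 at 1 hpf, 0.214, 0.449 and 0.910 at 3 hpf, 0.143, 0.301 and 0.658 at 24 hpf and 0.103, 0.241 and 0.559 at 48 hpf. The arrays of 1 hpf were below, and those of 3 hpf above, the unfed arrays of the same number, and all ranges overlapped. Array 1 of 1 hpf was not above the empty spots. At 1 hpf the mean was 0.563 of unfed (log2 ratio -0.84 ± 0.14, limma adjusted p 1 without and 0.00147 with the block, and 0.112 with the block under local background). At 3 hpf it was 1.42-fold of unfed (log2 ratio 0.44 ± 0.14, limma adjusted p 0.0567 with the block). The beta subunit of the channel (AET-3001), the beta (AET-3017) and gamma (AE-309) subunits of the translocon-associated complex TRAP, signal peptidase I (AE-337) and a signal peptidase subunit (AET-17565) passed on no array, with highest values of 0.144, 0.0236, 0.0611, 0.121 and 0.0803. The hypothetical protein AE-18225 passed on 1 unfed array and 1 array of 1 hpf.

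Of the vesicle traffic members, ADP ribosylation factor 79F (AET-249), a GTPase that recruits vesicle coats at the Golgi, was above the empty spots on 1 array of 24 hpf. The value there was 0.0501, against a limit of 0.0423. Its highest value of any group, 0.127 on unfed array 3, did not pass. The other 12 passed on no array. They were a RAB protein (AET-452), Rab2 (AET-20561), a member of the Rab subfamily (AET-506), an enzyme that puts a lipid anchor on Rab proteins (AET-6725), prenylated rab acceptor 1 (AET-5253), the Rab-interacting factors AET-4694 and AET-10650, ADP-ribosylation factor 6 (AET-4726), an interacting protein of ADP-ribosylation factor-like 6 (AET-5374), the p24 cargo receptors AY552062 and AET-572, and the small subunit of a clathrin adaptor (AE-392). Apart from the RAB protein, with 0.192, their highest values on any array were at most 0.0303. Nothing can be said from these arrays about a change of this step with the blood meal.

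**Figure D3:**
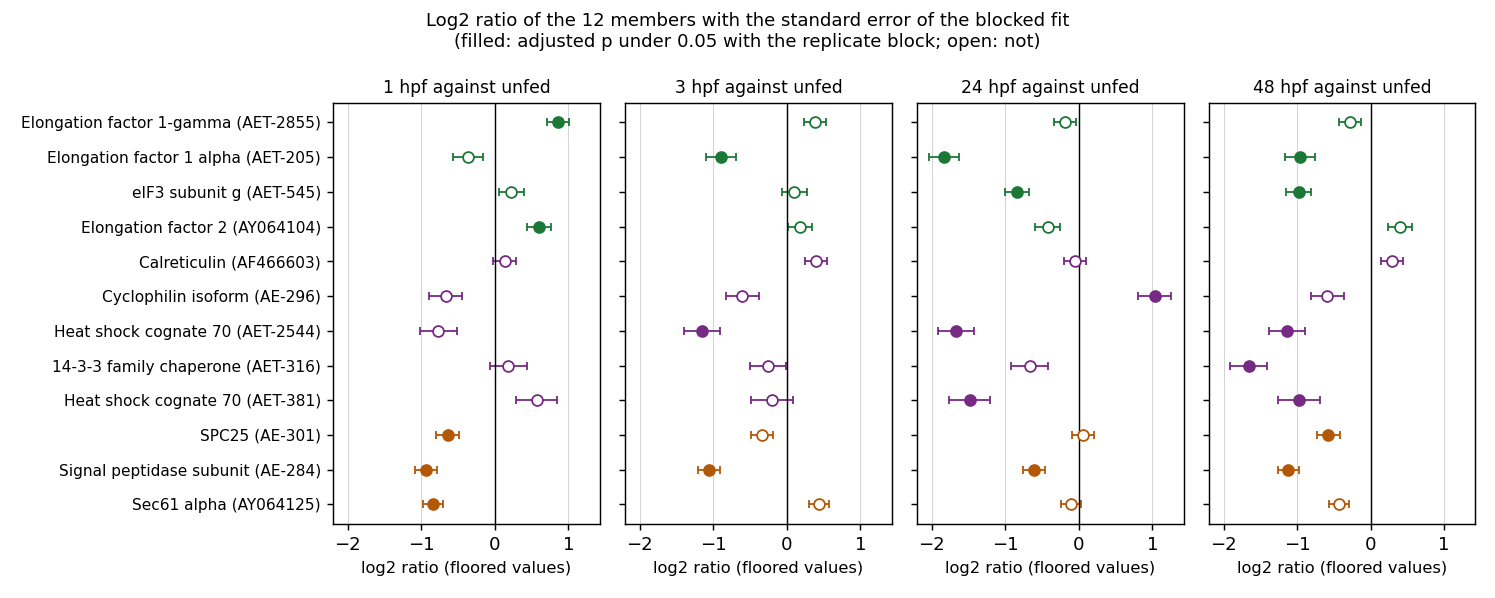
Log2 ratio of floored normalized intensities (x axis) of the 12 members (y axis) in glands of 1, 3, 24 and 48 hpf against unfed glands. Bars are standard errors of the fit with the replicate block, colours mark the step, and filled points have an adjusted p under 0.05 with the block. At 48 hpf 7 points are filled and all lie below 0, and at 24 hpf the cyclophilin isoform is the filled point above 0.

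Set out by comparison, 1 hpf against unfed had the 3 detected ER entry members lower and elongation factors 1-gamma and 2 higher in the fit with the block. Without the block limma called 0 members, where 1.16% of all probes were called in either direction, and 0 members had an unadjusted p under 0.05. With the block 3 of the 55 members were lower and 2 higher, against 3.01% of all 432 probes lower and 15.5% higher. These calls all fell on detected probes, with 3 and 2 of the 12 members and 13 and 67 of the 149 probes. Of the 12 detected members 1 was at most 0.5-fold and 0 were at least 2-fold, where the shares over all 149 detected probes were 5.37% and 11.4%. The 1 member was the cyclophilin isoform, above the empty spots on 0 of 3 arrays of 1 hpf, so its fold was not measured. The median log2 ratio of the 12 was -0.12, against 0.54 for the 149, and over all 55 members and all 432 probes it was 0, since most probes lay at the floor. On each array 33 to 64 gene probes were saturated. At all times the shares and medians over all probes therefore include ratios that are not measured folds. Among them, ribosomal protein S2 was saturated on every array and had a log2 ratio of 0.64 at 1 hpf.

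At 3 hpf elongation factor 1 alpha, the heat shock cognate AET-2544 and the signal peptidase complex subunit AE-284 were lower with the block. These were 3 members lower and 0 higher, against 4.17% and 13.9% of all probes. Of the detected probes, that is 3 and 0 of 12 members and 18 and 60 of 155 probes. Without the block 0 members passed (1.16% of all probes), with 0 members at an unadjusted p under 0.05. At most 0.5-fold were 2 of the 12 and at least 2-fold 0, against 7.74% and 14.2% of 155 detected probes. The median log2 ratio was -0.23 for the 12 and 0.37 for the 155.

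At 24 hpf elongation factor 1 alpha, initiation factor 3 subunit g, both heat shock cognates and AE-284 were lower and the cyclophilin isoform was higher with the block, that is 5 members lower and 1 higher against 6.25% and 12.5% of all probes. Of the detected probes, that is 5 and 1 of 12 members and 27 and 54 of 158 probes. Without the block 0 members passed (0.926% of all probes), and 3 had an unadjusted p under 0.05, all lower, namely elongation factor 1 alpha and both heat shock cognates. Of the 12 members 3 were at most 0.5-fold and 1 was at least 2-fold, where 15.2% and 9.49% of the 158 detected probes were. The 3 include AET-2544, above the empty spots on only 1 of 3 arrays of 24 hpf. The value of that array was raised to the floor in the limma fits, so the log2 ratio of AET-2544 rested on no detected value of 24 hpf. The methods' rule of a fold limit and an unadjusted p, run here with an equal-variance test since they name none, called elongation factor 1 alpha and AET-2544 lower at 24 hpf and 0 members in the other 3 comparisons with unfed, and after Benjamini-Hochberg adjustment it called 0. The median log2 ratio of the 12 was -0.52, against 0.19 for the 158, and 10 of the 12 were below 0.

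At 48 hpf the members called lower with the block were elongation factor 1 alpha, initiation factor 3 subunit g, both heat shock cognates, the 14-3-3 protein and both signal peptidase complex subunits. These were 7 members lower and 0 higher, against 7.64% and 11.1% of all probes. Of the detected probes, that is 7 and 0 of 12 members and 33 and 48 of 145 probes. Without the block 0 members passed (0.231% of all probes) and 1, the 14-3-3 protein, had an unadjusted p under 0.05. Of the 12, 3 were at most 0.5-fold and 0 at least 2-fold, against 17.9% and 4.83% of the 145 detected probes. The median log2 ratio was -0.78 for the 12 and 0.13 for the 145, and 10 of the 12 were below 0. All 4 comparisons share the unfed arrays, so their counts are not independent of each other.

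Between the steps, the detected translation members had median log2 ratios of 0.41, 0.14, -0.63 and -0.63 at 1, 3, 24 and 48 hpf. The detected folding members had 0.13, -0.26, -0.67 and -0.98, and the detected ER entry members -0.84, -0.33, -0.11 and -0.57. The folding members include the 14-3-3 protein, an adaptor counted there by its description on the array as a multifunctional chaperone. The signs of the translation medians at 1 and 3 hpf, the folding median at 1 hpf and the ER entry median at 3 hpf rested on the scaling. With S5 alone the translation median was 0.14 at 1 hpf and -0.21 at 3 hpf, and without a reference -0.23 and -0.22. The folding median at 1 hpf was -0.14 with S5 alone and -0.06 with local background, and the ER entry median at 3 hpf was 0.00 with local background. The ER entry median at 1 hpf, the folding median at 3 hpf and the medians of all 3 steps at 24 and 48 hpf were below 0 under the 5 other settings too. The folding median at 1 hpf was that of calreticulin, whose unfed spot was saturated on 2 of 3 arrays. With 4, 5 and 3 members a step, the difference between steps was not tested.

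The actin and S5 spots that scale each array changed in their parts. The actin share of the reference was 1.56% to 17.6% on fed arrays and 14.1% to 38.9% on unfed ones, and S5 was at saturation on 7 arrays of 15. With S5 alone the members below 0 numbered 9, 9, 11 and 11 of 12 at 1, 3, 24 and 48 hpf, against 6, 7, 10 and 10 with the deposited reference. Without any reference they were 11, 9, 11 and 12, after quantile normalization 10, 8, 11 and 11, with the array median 9, 9, 11 and 10, and with local background 9, 5, 11 and 10. The median over the detected probes at 1 hpf moved with the setting as well, to 0.28 with S5 alone and -0.05 without a reference. With the block the count of members higher at 1 hpf was 1 with S5 alone and 0 under the other 4 settings, against 2.55% of all probes with S5 alone and 1.16% to 2.31% under the other 4. The count of members lower at 24 hpf was 10 with S5 alone or no reference, where 10.2% and 10.6% of all probes were lower, and 3 with local background, where 1.62% were.

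**Figure D4:**
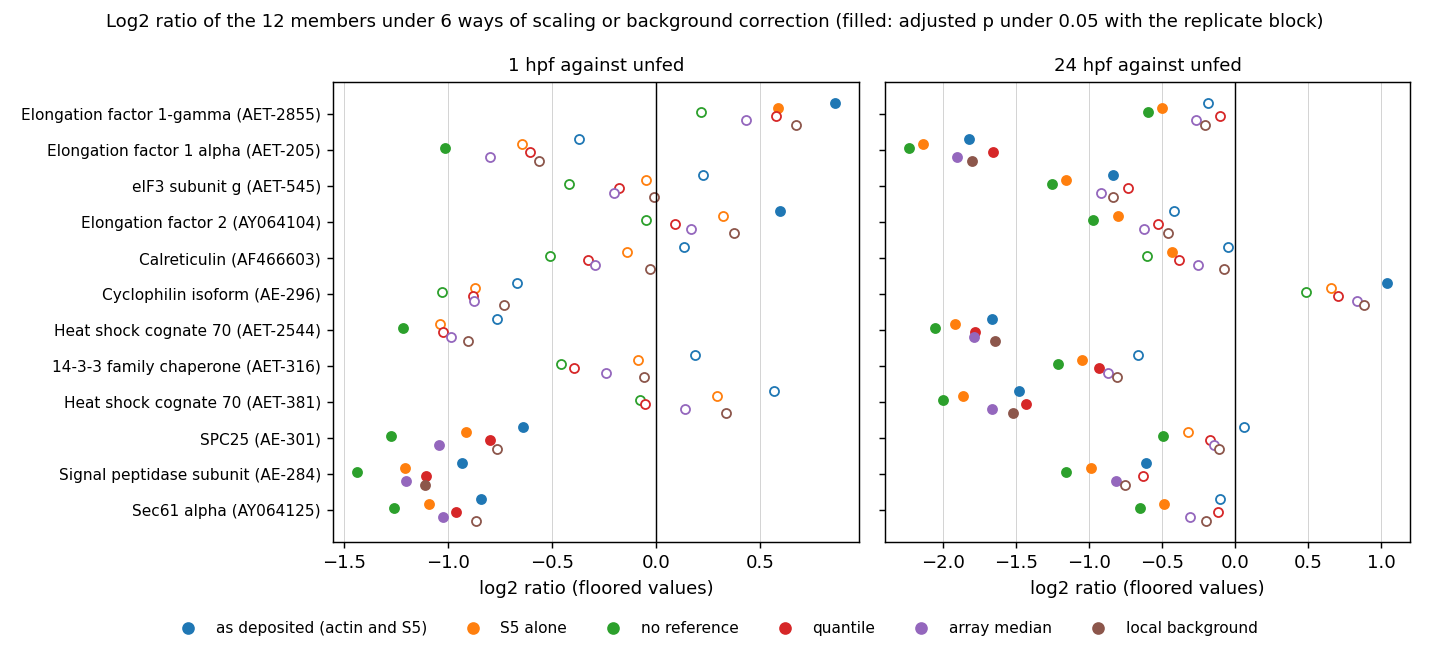
Log2 ratio of floored values (x axis) of the 12 members (y axis) at 1 and 24 hpf against unfed glands, with the deposited reference and under 5 other ways of scaling or background correction (colours). Filled points have an adjusted p under 0.05 with the replicate block. At 24 hpf elongation factor 1 alpha and both heat shock cognates lie below 0 and are filled under all 6, and the cyclophilin isoform lies above 0 under all 6 but is filled with the deposited reference alone.

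Between successive fed times limma without the block called 0 members at 3 against 1 hpf (0.231% of all probes), 0 at 24 against 3 hpf (0.231%) and 0 at 48 against 24 hpf (0% of all probes). Members with an unadjusted p under 0.05 numbered 0, 2 and 1. With the block Sec61 alpha was higher at 3 than at 1 hpf, with 0.525 ± 0.354 against 0.208 ± 0.133 (SD, n = 3 arrays each), 2.52-fold (log2 ratio 1.27 ± 0.14, limma adjusted p 0.000519 with the block). It passed under all 5 other settings but was lost with the floor raised to 0.242, the highest limit of any array. Sec61 alpha was the 1 member called there, with 0 lower, against 1.85% of all probes in each direction, or 8 of 156 detected ones each.

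Between 24 and 3 hpf 5 members were lower and 1 higher with the block, against 5.56% and 1.16% of all probes, or 24 and 5 of 158 detected ones. The cyclophilin isoform was the higher one, at 0.517 ± 0.345 against 0.116 ± 0.106 (SD, n = 3 arrays each), 4.45-fold (log2 ratio 1.64 ± 0.22, limma adjusted p 0.00109 with the block). At 3 hpf its array 1 was not above the empty spots, and arrays 2 and 3 were near their limits (0.0759 and 0.236 against 0.0746 and 0.223). The lower ones were elongation factors 1-gamma and 1 alpha, initiation factor 3 subunit g, the heat shock cognate AET-381 and Sec61 alpha, with log2 ratios between -1.28 and -0.54. Between 48 and 24 hpf 3 members were lower and 2 higher, against 3.7% and 2.55% of all probes, or 16 and 11 of 152 detected ones. The cyclophilin isoform was lower again, 0.246-fold (log2 ratio -1.63 ± 0.22, limma adjusted p 0.00235), beside the 14-3-3 protein and SPC25. Array 1 of 48 hpf was not above the empty spots for the cyclophilin isoform. Elongation factors 1 alpha (2.00-fold) and 2 (1.63-fold) were the higher ones.

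Other genes of the route that the rule left out numbered 15 on the array, and 4 of them were above the empty spots in some group. A protein disulfide isomerase precursor of the ER (AET-2353), an enzyme that forms disulfide bonds, averaged 0.141 ± 0.134 at 48 hpf against 0.365 ± 0.206 in unfed glands (SD, n = 3 arrays each), and it was lower with the block at all 4 times (log2 ratios of -0.83 ± 0.14, -0.75 ± 0.14, -0.73 ± 0.14 and -1.13 ± 0.14, with limma adjusted p-values of 0.00147, 0.00641, 0.00364 and 0.000812). It was above the empty spots on 2 of 3 arrays at 1, 3 and 48 hpf. Without the block it passed at no time (limma adjusted p 0.735 at 48 hpf). Other scalings and omissions of arrays are not given for the genes outside the rule. Both probes detected for the oligosaccharyltransferase (its gamma subunit AE-258, and AET-394, named for the transfer itself), which adds sugar chains in the ER, were above the empty spots on 3 unfed arrays and 0 arrays of 1 hpf. AE-258 averaged 0.0997 ± 0.0754 at 1 hpf against 0.273 ± 0.183 in unfed glands, and AET-394 averaged 0.0982 ± 0.0592 against 0.262 ± 0.167 (limma adjusted p 0.0213 and 0.0254 with the block). Translationally controlled tumor protein (AET-2239) entered this list by its name alone, and the array describes it as a microtubule binding protein. It was higher with the block at 3 hpf, 2.33-fold of unfed with a log2 ratio of 1.17 ± 0.14 and a limma adjusted p of 0.000633. In all, with the block 3, 2, 1 and 1 of the 15 were lower and 0, 1, 0 and 0 higher at 1, 3, 24 and 48 hpf, and without it 0 passed at any time, with 0 at an unadjusted p under 0.05.

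The other 11 of that list, among them SAR1 of the COPII coat, the vesicle trafficking protein SEC22 and a VAMP-associated protein, were above the empty spots on 0 arrays. Of 9 proteasome probes 1 was above the empty spots at 3 and 24 hpf, and none passed limma with or without the block. The 4 ribosomal proteins other than S5 were above the empty spots on all arrays. Of these 3 were saturated on most arrays, where no fold is measured, and the unsaturated one, S4 (AE-303), averaged 0.590 ± 0.326 at 1 hpf against 0.864 ± 0.240 in unfed glands (log2 ratio -0.66 ± 0.17, limma adjusted p 0.0167 with the block). Without the block S4 passed at no time. With the block it did not pass at 3, 24 or 48 hpf (limma adjusted p 0.881, 0.0640 and 0.334), and its mean at 3 hpf was 1.17-fold of unfed.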

How the data were processed

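The authors amplified and biotin-labelled total RNA of pooled glands, hybridized it to nylon arrays and quantified the spots with GEArray Expression Analysis Suite 2.0. The deposited sheets hold the raw spot and local background intensities and a normalized intensity, divided by the mean of positions 411 (actin) and 424 (ribosomal protein S5) per the file headers, although the methods name RpL5. Recomputed from the raw intensity it differed by at most 0.000129. The score values of the deposited series matrix are the authors' group means relative to unfed, and the medians of its columns were 1 (unfed), 1.23 (1 hpf), 1.16 (3 hpf), 0.96 (24 hpf) and 0.81 (48 hpf). It served as an alternative for the folds. Lists of the authors' fold differences and p-values were not used. Sequences of the 60-mer probes were not used here, and 0 members matched the RefSeq table.

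The 3 spots of 1 probe were averaged. Spots of 60000 or more counted as saturated. Values were raised to the median detection limit of the arrays (0.108), and log2 values of all 15 arrays were fitted with limma 3.58.1 in R 4.3.3 (lmFit, eBayes), S5 left out, which leaves 432 probes. A probe is detected in a comparison when 2 or 3 arrays of either group exceed the mean plus 2 SD of the empty spots. Arrays are 3 per group, and their number limits the precision. Same-numbered arrays deviated together from their group means in all 30 pairs (correlations of 0.352 to 0.809 over 214 probes, and 0.360 to 0.793 over those outside the rule), so the array number was taken to pair the arrays and the fit with it as a block is given beside the fit without it. The fits were tested on simulated data. These simulations had the additive array effect that the block removes built in, and so do not bear on how well the block describes the deposited arrays. Alternatives were S5 alone or no reference, quantile normalization after normexp (offset 50), the array median, local background, other floors, filters and limits, and each array left out. Up to 12 members above the empty spots in at least 1 group, taken in order of the smallest adjusted p with the block, were given values on every array, and the others were given by name and range. The members and lists were chosen with earlier results of these data known. Figures were drawn with matplotlib 3.10.9 in Python 3.11.15.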

Additional observations from a re-analysis of the deposited data

Results flagged for a closer look

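All results here are differences between successive fed times that passed limma in the fit with the replicate block and did not pass without it. Each is a log2 ratio of floored values. They were picked out because the arrays of 2 fed times differed by a test of that difference, which covers the spread between arrays of 1 RNA pool per time and not that between pools.

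For 3 against 1 hpf the ratio was 1.27 for Sec61 alpha (AY064125), with no single array and none of the 5 other settings ending the call. With the floor raised to 0.242 that call was lost, as were all calls for 24 against 3 hpf. For 24 against 3 hpf the ratio was 1.64 for the cyclophilin isoform (AE-296) and -0.94 for initiation factor 3 subunit g (AET-545), and both calls held with any 1 array left out. The first was lost under local background (adjusted p 0.0599), and the second under quantile normalization (0.243), the array median (0.301) and local background (0.0715). It was -1.28 for the heat shock cognate AET-381, lost without any of the 3 arrays of 3 hpf or arrays 1 or 2 of 24 hpf (adjusted p up to 0.117) or under the array median (0.136), and -0.94 for elongation factor 1 alpha (AET-205), lost without arrays 2 or 3 of 3 hpf or arrays 1 or 2 of 24 hpf (up to 0.118), under the array median (0.301) or under local background (0.118). It was -0.57 for elongation factor 1-gamma (AET-2855) and -0.54 for Sec61 alpha, and 10 and 9 of the 15 omissions of 1 array removed these calls (up to 0.211 and 0.203), as did quantile normalization (0.386 and 0.209) and the array median (0.45 and 0.444) for both and local background (0.117) for the first.

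For 48 against 24 hpf the ratio was -1.63 for the cyclophilin isoform, a call that no single array decided but that was lost under the array median (adjusted p 0.0713) and local background (0.0577), and 0.82 for elongation factor 2 (AY064104), lost without arrays 1 or 2 of either group (up to 0.0953), and under quantile normalization (0.0747), the array median (0.164) or local background (0.398). It was 0.86 for elongation factor 1 alpha, -0.99 for the 14-3-3 protein (AET-316) and -0.63 for SPC25 (AE-301), and 10, 11 and 9 of the 15 omissions removed these calls (up to 0.194, 0.209 and 0.182). All 3 were also lost under quantile normalization (0.0747, 0.0747 and 0.289), the array median (0.398, 0.212 and 0.210) and local background (0.930, 0.398 and 1), and elongation factor 1 alpha without a reference (0.215). Neighbouring comparisons share the arrays of the time between them.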

How the results depend on the processing

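The counts of members past limma were 0 without the block in all 7 comparisons and stayed at 0 under every other scaling, background, floor, filter and omission of 1 array that was run without it. The alternatives with the block were chosen after seeing the data. With the replicate block there were 3 members lower and 2 higher at 1 hpf, 3 lower at 3 hpf, 5 lower and 1 higher at 24 hpf, 7 lower at 48 hpf, and 1, 6 and 5 in either direction at 3 against 1, 24 against 3 and 48 against 24 hpf. The methods' rule of fold and unadjusted p, with an equal-variance test chosen here, gave 2 lower at 24 hpf. The counts of members above the empty spots kept within 1.5 times under the other limits.

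With the block, S5 alone gave 1 higher at 1 hpf, 10 lower and 0 higher at 24 hpf and 2 at 3 against 1 hpf. No reference gave 5 lower and 0 higher at 1 hpf, and 10 lower and 0 higher at 24 hpf. Quantile normalization gave 0 higher at 1 and 24 hpf, 2 at 3 against 1 hpf and 1 at 48 against 24 hpf. The array median gave 0 higher at 1 and 24 hpf, 1 at 24 against 3 hpf and 0 at 48 against 24 hpf. Local background gave 1 lower and 0 higher at 1 hpf, 0 lower at 3 hpf, 3 lower and 0 higher at 24 hpf, 2 lower at 48 hpf, 2 at 24 against 3 hpf and 0 at 48 against 24 hpf. The halved floor gave 5 lower at 1 hpf and 5 at 3 hpf. The highest floor (0.242) gave 1 lower at 1 hpf, 2 lower and 0 higher at 24 hpf, 4 lower at 48 hpf, and 0, 0 and 1 between successive times. With probes above the empty spots alone there were 5 lower at 1 hpf and 1 higher at 3 hpf, and with saturated probes left out 1 higher at 1 hpf. Without all arrays numbered 3 there were 0 higher at 24 hpf and 5 at 3 against 1 hpf. The cause was not tested.

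Leaving out 1 array gave, with the block, 2 to 5 lower and 1 to 2 higher at 1 hpf, 1 to 4 lower (1 without unfed array 2) and 0 to 1 higher at 3 hpf, 1 to 2 at 3 against 1 hpf, 2 to 7 at 24 against 3 hpf (2 without 3 hpf array 2) and 1 to 6 at 48 against 24 hpf (1 without 24 hpf array 1).

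Members at most 0.5-fold numbered, at 1 hpf, 3 with S5 alone, the array median or local background, 4 after quantile normalization and 5 without a reference. At 3 hpf they numbered 4 with S5 alone, no reference or the array median and 0 with local background, at 24 hpf 5 without a reference, and at 48 hpf 7 with S5 alone, 8 without a reference, 6 with the array median and 5 after quantile normalization. At least 2-fold were 1 at 3 hpf with local background and 0 at 24 hpf with S5 alone, no reference, quantile normalization or local background. These folds do not pair the arrays, so that leaving out an array numbered 3, the brightest, moved them most. The range at most 0.5-fold was 0 (without unfed array 3) to 5 (without 1 hpf array 3) at 1 hpf, 0 to 4 at 3 hpf (without unfed or 3 hpf array 3), 2 to 6 at 24 hpf (6 without 24 hpf array 3) and 1 to 10 at 48 hpf (without unfed or 48 hpf array 3), and at least 2-fold it was 0 to 1, 0 to 2 and 0 to 1 at 1, 3 and 24 hpf. Dim spots limit the rest, since 38 of the 55 members passed the empty spots on no array and 5 only on single arrays.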
